A study of Mus musculus with 8 samples.

Results

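The proteasome subunit genes are the 39 genes of the joint count table whose symbol begins with Psma, Psmb, Psmc or Psmd followed by a number, out of 55421 genes counted. They were measured by bulk RNA sequencing of small intestine from wild-type mice in 8 samples. Every mouse had been kept in air with 7% oxygen for 7 days. In 4 samples the animals got nothing more (Hypoxia), and in the other 4 they were supplemented with 4 mM nitrate as well (Hypoxia+Nitrate). No group breathing normal air is among the samples, so both arms share the hypoxia. Nitrate, found in leafy vegetables, can be turned into nitric oxide in the body, and the comparison asks which intestinal genes differ when it is given during hypoxia. The labels give no sex or age and do not say that the samples of a group came from separate animals, so a p-value here measures only how far these samples spread, which may be technical.

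The proteasome degrades proteins that carry chains of ubiquitin. Its core particle is a barrel of stacked rings: alpha subunits form the outer rings and gate the entrance, and beta subunits form the inner rings and hold the active sites. A regulatory particle caps the barrel; its base holds a ring of ATPases that unfold substrates, and its lid removes the ubiquitin. Under interferon, and in immune cells at rest, the catalytic subunits Psmb5, Psmb6 and Psmb7 can be replaced by Psmb8, Psmb9 and Psmb10, which gives the immunoproteasome, known for making peptides for antigen presentation. In the intestine, epithelial cells and the leukocytes among them carry proteasomes, and the epithelium is renewed without pause. By role the 39 genes fall into 7 alpha subunits, 4 structural and 3 catalytic beta subunits, 3 immunoproteasome subunits, 6 ATPases, 3 other base subunits, 8 lid subunits and 3 chaperones of regulatory particle assembly. The remaining pair is tissue-restricted: Psma8 is the alpha subunit of the testis, and Psmb11 is the catalytic subunit of thymic cortical epithelium.

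The 39 genes lie on 16 chromosomes. Proteasome subunit genes are known to be induced in concert through shared promoter elements. RefSeq promoters (build GRCm38.p6, 250 bases before to 50 after the start) were matched for 32 of the 39 members and compared with all 27025 genes of the same table, both strands searched. The antioxidant response element core TGACNNNGC, bound by the factors Nfe2l1 and Nfe2l2, was in 5 members (15.6%: Psmb5, Psmb6, Psmc6, Psmd9 and Psmd12) and in 14.0% of all genes. The ETS core CCGGAA was in 15 members (46.9%) and in 16.7% of all genes. The NF-Y box CCAAT was in 13 members (40.6%) and in 41.1% of all genes. Of the interferon-related elements, GAAANNGAAA was in 3 members (9.38%: Psmb3, Psmd4 and Psmd9) against 3.99% of all genes, and the gamma-activated site TTCNNNGAA was in 2 members (6.25%: Psmb8 and Psmd2) against 9.55%. A match of letters is a description and does not show binding.

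These stretches are shown because they carry these elements in members described in the results: 2 catalytic subunits, an ATPase, and 2 base subunits, cut back where an annotated exon begins. Capitals mark the matched elements, and where 2 matches overlap, as the pair of ETS cores in Psmd4, they share a run of capitals. The element is the antioxidant response core in Psmb5 and Psmb6, that core and then an ETS core in Psmc6, and a pair of ETS cores in Psmd2. In Psmd4 the runs are the ETS pair, an NF-Y box and GAAANNGAAA on the other strand.
Psmb5 (chr14:54618023-54618145, minus strand): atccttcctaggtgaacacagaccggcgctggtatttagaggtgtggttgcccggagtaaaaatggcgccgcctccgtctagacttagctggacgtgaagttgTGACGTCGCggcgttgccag
Psmb6 (chr11:70525207-70525356, plus strand): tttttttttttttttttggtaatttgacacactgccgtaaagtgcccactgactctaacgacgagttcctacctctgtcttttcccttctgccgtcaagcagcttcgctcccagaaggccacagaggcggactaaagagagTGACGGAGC
Psmc6 (chr14:45329574-45329787, plus strand): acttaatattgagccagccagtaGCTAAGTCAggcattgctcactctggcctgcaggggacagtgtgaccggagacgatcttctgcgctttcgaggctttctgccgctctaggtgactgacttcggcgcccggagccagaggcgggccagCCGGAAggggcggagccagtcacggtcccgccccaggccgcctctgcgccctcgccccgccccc
Psmd2 (chr16:20651502-20651651, plus strand): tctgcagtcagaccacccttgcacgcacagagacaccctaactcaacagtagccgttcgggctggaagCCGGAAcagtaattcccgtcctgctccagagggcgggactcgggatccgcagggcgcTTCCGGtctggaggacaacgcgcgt
Psmd4 (chr3:95042615-95042764, minus strand): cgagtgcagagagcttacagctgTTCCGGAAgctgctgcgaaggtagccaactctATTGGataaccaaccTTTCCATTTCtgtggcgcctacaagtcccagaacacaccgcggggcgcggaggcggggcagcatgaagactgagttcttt
For the immunoproteasome subunit Psmb8, 29 bases are given around its gamma-activated site, which lies in an annotated exon.
Psmb8 (chr17:34198088-34198116, plus strand): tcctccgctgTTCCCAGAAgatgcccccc

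The libraries differed in ways that touch every result below. Total counts ran from 5345377 to 21835865 in Hypoxia and from 8662279 to 63943036 in Hypoxia+Nitrate. A background was estimated from 1467 odorant, vomeronasal and trace-amine receptor genes, taken to be silent in gut, as counts per kilobase, and it was worth 39.0% to 63.7% of the nuclear protein-coding counts in Hypoxia against 2.74% to 23.2% in Hypoxia+Nitrate. Ribosomal RNA held 75.71%, 73.70%, 7.06% and 44.97% of counts in Hypoxia 1 to 4. In Hypoxia+Nitrate 1 to 4 it held 2.33%, 21.96%, 4.95% and 3.42%, and the groups overlapped through Hypoxia 3. Mitochondrial genes held 0.423% to 1.06% of counts in Hypoxia but 64.0%, 7.31%, 6.90% and 49.3% in Hypoxia+Nitrate 1 to 4. Hypoxia+Nitrate 1 and 4 thus stood apart from Hypoxia+Nitrate 2 and 3 in mitochondrial share and in background. They also stood apart in total counts (63943036 and 52189300 against 10704437 and 8662279). Markers of intestinal epithelium were unequal: all 10 were higher in Hypoxia+Nitrate, with a summed level of 52.5 to 581 CPM (counts scaled to library size by the TMM method) in Hypoxia and 936 to 32921 in Hypoxia+Nitrate. Over the Hypoxia group they ran from 0.859 (Sis) to 54.5 (Apoa1) times the expected background. Cdh17 and Alpi were at 1.51 and 1.66 times, so not all of these markers stood clear of background there. In each of these markers Hypoxia+Nitrate 1 and 4 lay above Hypoxia+Nitrate 2 and 3. Fabp2 held 10014, 553, 262 and 16962 CPM in Hypoxia+Nitrate 1 to 4, and Lct held 231, 14.9, 22.7 and 116 CPM. Smooth muscle markers were higher for 5 of 5 genes (58.5 to 408 CPM summed against 1292 to 2811), and leukocyte markers for 5 of 13 (82.5 to 104 against 156 to 1221). The part of these differences in the results below was not tested. In bulk tissue, fewer cells of a type and less RNA per cell cannot be told apart.

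All 39 members passed the filter on low counts. In the fit over 35431 genes, 35 members rose with nitrate and 1 fell, where 11.7% of all genes tested rose and 12.7% fell (edgeR quasi-likelihood test, adjusted p under 0.05). Among nuclear protein-coding genes alone the share that rose was 18.5%. The members that did not pass were the chaperone Psmd5, the immunoproteasome subunit Psmb9 and the thymic subunit Psmb11. The median log2 fold change of the 37 members outside testis and thymus was 2.90, with a range of 1.08 to 3.94, and the median of all genes tested was -0.58. In 33 members every Hypoxia+Nitrate library lay above every Hypoxia library, which held for 12.0% of all genes tested, and in Psma8 and Psmb11 every one lay below, which held for 28.8%. The groups overlapped in Psmb9, Psmb10, Psmd1 and Psmd3.

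The number of members called moved with the scaling, with the treatment of background and with single libraries, and the size of the estimates did not always move with it. Other scalings moved the median of all genes to -0.87 (RLE) and -0.94 (upper quartile), and turned the split of 4163 higher and 4490 lower calls into 3237 and 6012, and 2844 and 5425. Under these scalings 33 and 30 members rose, beside 9.14% and 8.03% of all genes. With no filter, a CPM filter, DESeq2, limma-voom, the quality-weighted form of limma-voom, a block for replicate number and nuclear protein-coding genes alone, 37, 35, 35, 31, 37, 25 and 34 members rose. The share of all genes that rose in those fits was 9.33%, 12.5%, 8.85%, 10.9%, 15.8%, 6.14% and 15.1%. Scaled by library size alone no member passed as higher, beside 0.686% of all genes, although 37 of 39 estimates were positive there, as under TMM, RLE and upper-quartile scaling; the median of the 37 ubiquitous members was 1.74 in that fit. After subtraction of the expected background, 3 members rose (Psma5, Psmc1 and Psmc2) beside 4.21% of genes. Only nuclear protein-coding genes entered there, and counts below the background were set to 0. Among these 3 members such counts were those of Psmc2 in Hypoxia 1 and 3 (0.714 and 0.509 times background) and of Psma5 in Hypoxia 1 (0.876 times). Further members had such counts in Hypoxia as well. Examples are Psmd14 in Hypoxia 3 and 4 (0.771 and 0.624 times), and Psmd6 and Psmb6 in Hypoxia 3 (0.587 and 0.800 times). All 37 ubiquitous members had positive estimates in that fit, with a median of 2.51 against 0.07 for all genes. With the background share as a covariate no gene of the table passed in edgeR (2641 genes had an unadjusted p under 0.05) and the estimates of 11 members turned negative, with a median of 0.41 for the 37. Without Hypoxia 1 the count was 8 (Psma6, Psmb4, Psmb5, Psmc1, Psmc4, Psmc5, Psmd4 and Psmd8), beside 1.95% of genes; all 37 ubiquitous members were positive there too, with a median of 3.15. It was 20 without Hypoxia 3 and 21 without Hypoxia 4, beside 4.16% and 4.23%. Without Hypoxia 2 or Hypoxia+Nitrate 1, 2, 3 or 4 it was 30, 33, 37, 36 and 26, beside 7.06%, 9.09%, 14.3%, 13.1% and 7.65%. The median of the 37 was 2.28 without Hypoxia+Nitrate 4 and 2.63 to 3.39 without any other single library. The 8 genes named and Psma8 kept their call whichever single library was left out, and the other 27 called members lost it in at least 1 of these fits. Without both Hypoxia+Nitrate 1 and 4, the libraries with the higher mitochondrial shares, 24 members rose beside 10.1% of genes and the median of the 37 was 1.68. Without both Hypoxia 1 and 2, the libraries with the highest ribosomal RNA shares, there were 6 beside 1.51%, with a median of 3.60.

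**Figure D1:**
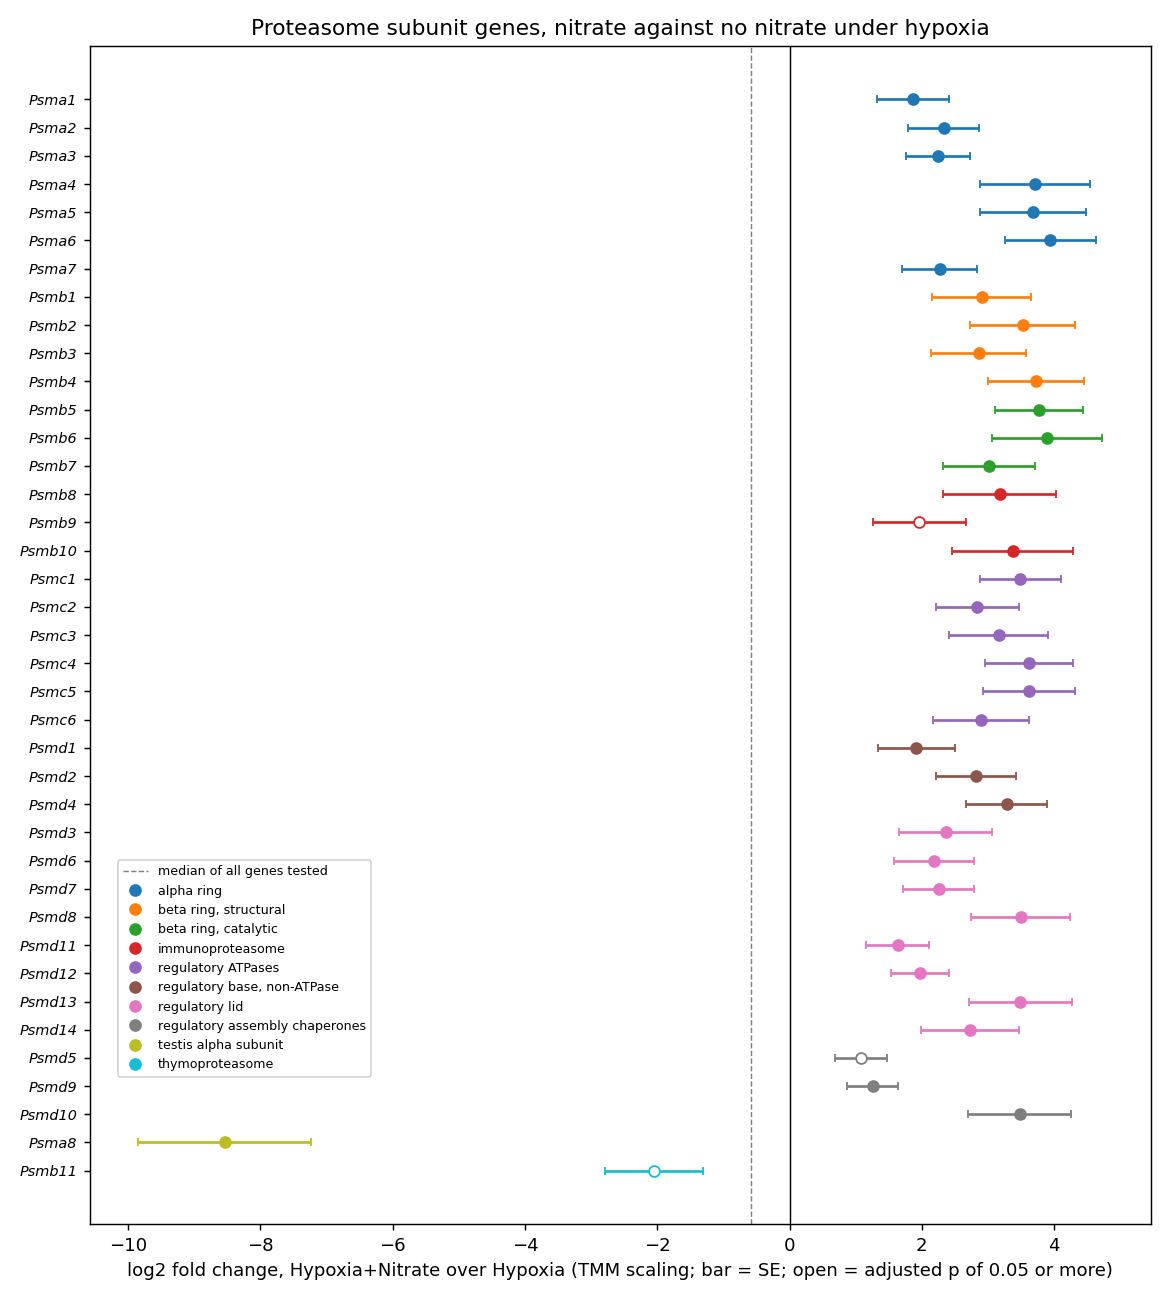
Log2 fold change of each of the 39 proteasome subunit genes, Hypoxia+Nitrate over Hypoxia, coloured by role, with bars for the SE derived from the edgeR test (8 samples). Filled points passed an adjusted p of 0.05, the dashed line is the median of all genes tested (-0.58), and the point of Psma8 depends on the prior count since all 4 Hypoxia+Nitrate libraries have 0 counts. All members lie to the right of 0 except Psma8 and Psmb11.

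In Hypoxia many members lay close to the background. Summed over the 4 Hypoxia libraries, the median member held 2.04 times the counts expected from background alone, from 1.03 for the ATPase Psmc2 to 11.0 for the lid subunit Psmd7, and 19 of 39 members were under 2 times. In Hypoxia+Nitrate the median was 43.2 times. Library by library the medians were 1.99, 3.33, 1.60 and 2.21 in Hypoxia and 103, 8.24, 11.0 and 171 in Hypoxia+Nitrate. The lowest Hypoxia+Nitrate median was thus above the highest Hypoxia median. In the 4 Hypoxia libraries background was expected to give 24.6% to 49.2% of all member counts, and in Hypoxia+Nitrate 0.696% to 9.78%.

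**Figure D2:**
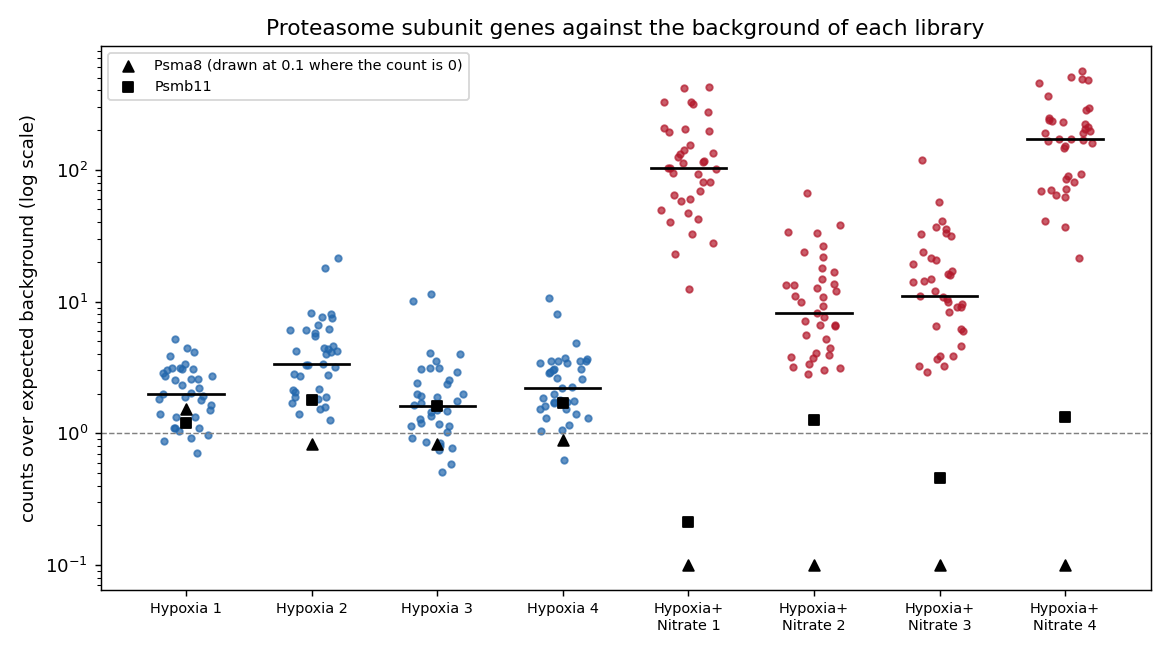
Counts of each proteasome subunit gene divided by the counts expected from background, by library, on a log scale. Points are 37 members, the triangle is Psma8 and the square Psmb11, bars are medians over the 39 members, and the dashed line marks counts equal to background. The Hypoxia medians lie between 1.60 and 3.33 and the Hypoxia+Nitrate medians between 8.24 and 171.

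A share within a library does not depend on the scaling between libraries. Of nuclear protein-coding counts, the 39 members together took 0.170%, 0.209%, 0.152% and 0.153% in the 4 Hypoxia libraries in order, against 0.363%, 0.312%, 0.381% and 0.519% in the nitrate libraries. All 4 nitrate libraries lay above all 4 without it, and the group means of 0.171% and 0.394% stood in a ratio of 2.30. With the expected background taken off members and total alike, the shares were 0.238%, 0.259%, 0.177% and 0.171% against 0.370%, 0.367%, 0.441% and 0.530%, a ratio of 2.02. The order of the groups was thus the same after the subtraction. Ranked per kilobase among 21963 nuclear protein-coding genes, the median of the 37 members outside testis and thymus stood at percentile 81.2, 85.0, 65.2 and 75.6 without nitrate and at percentile 92.7, 88.7, 90.7 and 95.2 in Hypoxia+Nitrate 1 to 4. No test was made of these sums and ranks, since the members were chosen with earlier results of these data known.

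**Figure D3:**
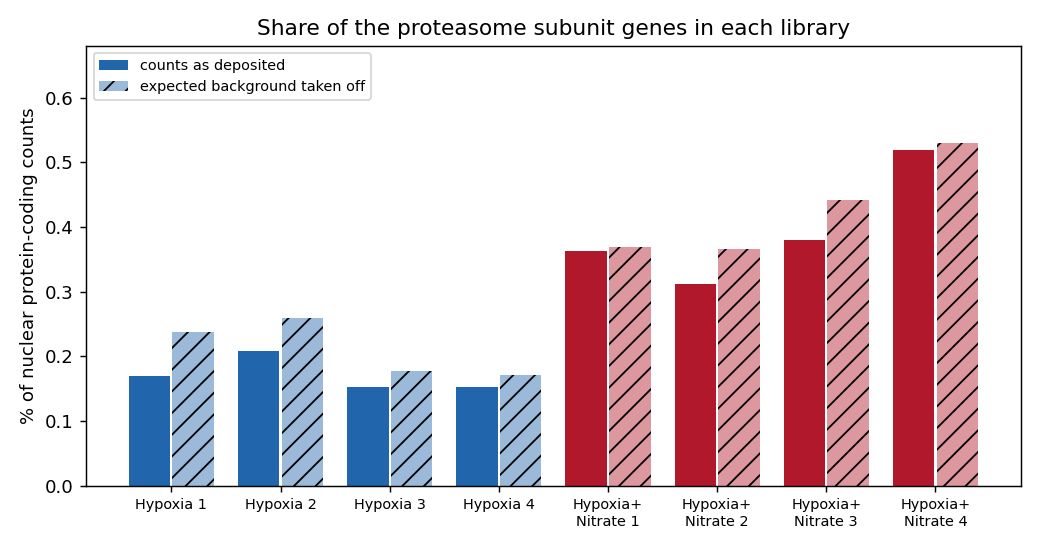
Share of the nuclear protein-coding counts held by the 39 proteasome subunit genes in each library, in percent, for the deposited counts (solid bars) and with the expected background taken off (hatched bars). Deposited shares run from 0.152% to 0.209% in Hypoxia and from 0.312% to 0.519% in Hypoxia+Nitrate.

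The alpha ring was higher in nitrate for all 7 of its constitutive members, with log2 fold changes between 1.87 and 3.94 and a median of 2.33. Psma6 (chr12:55384222-55418454, plus strand) had the lowest p of the ring. It held 3.47, 8.15, 3.90 and 4.76 CPM in Hypoxia 1 to 4 and 107, 29.2, 29.3 and 146 CPM in Hypoxia+Nitrate 1 to 4. Its nitrate libraries all lay above the others, with libraries 1 and 4 far above 2 and 3. The means were 5.07 ± 2.12 CPM (SD, n = 4) in Hypoxia and 78.0 ± 58.3 CPM (SD, n = 4) in Hypoxia+Nitrate (log2 fold change 3.94 ± 0.682 (SE), adjusted p = 0.00917 in edgeR). Psma1 had the highest p of the ring and held 10.1, 46.0, 32.7 and 24.3 CPM in Hypoxia 1 to 4 and 82.3, 81.5, 108 and 141 CPM in Hypoxia+Nitrate 1 to 4. Its groups did not overlap, but Hypoxia 1 lay well under the other Hypoxia libraries, and the nitrate libraries were closer together than those of Psma6 (log2 fold change 1.87 ± 0.541 (SE), adjusted p = 0.0305 in edgeR). That call was lost without Hypoxia 1 (adjusted p = 0.0926), Hypoxia 3 (0.0788), Hypoxia 4 (0.0869) or Hypoxia+Nitrate 4 (0.0594). Psma1 was also the member, with Psmd7, that stood farthest above background in Hypoxia, at 9.02 times over the group and 17.9 times in Hypoxia 2. Psma2, Psma3 and Psma7 had log2 fold changes of 2.33, 2.24 and 2.27, and Psma4 and Psma5 of 3.71 and 3.68; Psma5 was at 1.25 times background in Hypoxia.

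The 4 structural beta subunits, which complete the inner rings without an active site, all rose, with log2 fold changes from 2.86 to 3.72. Psmb4 (chr3:94884093-94886961, minus strand) was the subunit with the highest level per kilobase in nitrate, 66.4 CPM per kb. It held 10.5, 13.7, 5.38 and 9.64 CPM in Hypoxia 1 to 4 and 175, 37.4, 50.9 and 255 CPM in Hypoxia+Nitrate 1 to 4. Every nitrate library was above every Hypoxia library by a wide margin (log2 fold change 3.72 ± 0.726 (SE), adjusted p = 0.00917 in edgeR). Psmb1 held 16.9, 13.2, 4.32 and 7.23 CPM in Hypoxia 1 to 4 and 78.6, 21.4, 31.7 and 179 CPM in Hypoxia+Nitrate 1 to 4. Its lowest nitrate library, 21.4 CPM, was not far above Hypoxia 1 at 16.9 CPM (log2 fold change 2.90 ± 0.750 (SE), adjusted p = 0.0199 in edgeR), and the call was lost without Hypoxia 1 (adjusted p = 0.0561), Hypoxia 3 (0.0663) or Hypoxia 4 (0.0658). Psmb2 and Psmb3 had log2 fold changes of 3.53 and 2.86.

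The 3 constitutive catalytic subunits all rose, with a median log2 fold change of 3.77. Psmb5 (chr14:54614119-54618022, minus strand), which carries the chymotrypsin-like activity, held 2.94, 4.22, 2.63 and 2.89 CPM in Hypoxia 1 to 4 and 54.0, 13.4, 16.7 and 89.2 CPM in Hypoxia+Nitrate 1 to 4. The 4 Hypoxia libraries were close together, the 4 nitrate libraries were all higher, and Hypoxia+Nitrate 1 and 4 were the highest. The means were 3.17 ± 0.712 CPM (SD, n = 4) in Hypoxia and 43.3 ± 35.7 CPM (SD, n = 4) in Hypoxia+Nitrate (log2 fold change 3.77 ± 0.664 (SE), adjusted p = 0.00917 in edgeR). Psmb6 (chr11:70525367-70527858, plus strand), which carries the caspase-like activity, held 5.87, 13.5, 1.63 and 5.96 CPM in Hypoxia 1 to 4 and 124, 29.3, 40.0 and 207 CPM in Hypoxia+Nitrate 1 to 4. Hypoxia 3 was the lowest and Hypoxia 2 the highest of its group, and both were under every nitrate library (log2 fold change 3.89 ± 0.835 (SE), adjusted p = 0.0107 in edgeR). The call of Psmb6 was lost without Hypoxia 1 (adjusted p = 0.0535). Psmb7 (chr2:38588036-38644087, minus strand), which carries the trypsin-like activity, held 8.01, 4.44, 3.74 and 8.91 CPM in Hypoxia 1 to 4 and 65.7, 14.4, 18.5 and 105 CPM in Hypoxia+Nitrate 1 to 4. Its groups did not overlap either (log2 fold change 3.02 ± 0.696 (SE), adjusted p = 0.0134 in edgeR), and the call was lost without Hypoxia 1 (adjusted p = 0.0538) or Hypoxia 3 (0.0505). The annotated gene Gm3375 is at least 98% identical to Psmb5 over 796 bp, so the authors' counting could have split or dropped some Psmb5 reads.

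Of the 3 immunoproteasome subunits 2 rose, and their nitrate libraries were widely spread. Psmb8 (chr17:34197721-34201454, plus strand), which takes the place of Psmb5, held 5.67, 8.37, 2.90 and 3.13 CPM in Hypoxia 1 to 4 and 48.7, 9.27, 8.49 and 115 CPM in Hypoxia+Nitrate 1 to 4. Hypoxia+Nitrate 3 at 8.49 CPM was barely above Hypoxia 2 at 8.37 CPM, and the height of the group mean came from libraries 1 and 4 (log2 fold change 3.18 ± 0.855 (SE), adjusted p = 0.0233 in edgeR). The call was lost without Hypoxia 1 (adjusted p = 0.0768), Hypoxia 3 (0.0795), Hypoxia 4 (0.0730) or Hypoxia+Nitrate 4 (0.0545). Psmb10 (chr8:105935735-105938444, minus strand), which takes the place of Psmb7, held 2.27, 5.89, 3.48 and 2.47 CPM in Hypoxia 1 to 4 and 36.3, 9.38, 3.21 and 97.1 CPM in Hypoxia+Nitrate 1 to 4. Its groups overlapped, since Hypoxia+Nitrate 3 lay within the Hypoxia range (log2 fold change 3.37 ± 0.920 (SE), adjusted p = 0.0245 in edgeR). The call was lost without Hypoxia 1 (adjusted p = 0.0881), Hypoxia 3 (0.0772), Hypoxia 4 (0.0745) or Hypoxia+Nitrate 4 (0.0618).

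Psmb9 (chr17:34181987-34187764, minus strand), which takes the place of Psmb6, held 4.54, 8.22, 8.85 and 6.14 CPM in Hypoxia 1 to 4 and 20.0, 9.21, 7.18 and 71.5 CPM in Hypoxia+Nitrate 1 to 4. Hypoxia+Nitrate 2 and 3 were at the level of the Hypoxia libraries, and Hypoxia+Nitrate 4 stood far above (log2 fold change 1.96 ± 0.704 (SE), adjusted p = 0.0637 in edgeR). Psmb9 starts 211 bp from the start of Tap1, a transporter of peptides for antigen presentation, and their annotated exons overlap on opposite strands, so reads of both genes may have been mixed or dropped. Tap1 held 8.48, 5.46, 7.48 and 6.50 CPM in Hypoxia 1 to 4 and 22.9, 1.14, 1.63 and 17.3 CPM in Hypoxia+Nitrate 1 to 4, with a log2 fold change of 0.62 ± 0.823 (SE; adjusted p = 0.578, edgeR). Its values in Hypoxia+Nitrate 2 and 3 were lower than in any Hypoxia library, unlike those of Psmb9. Psmb8 lies in the same region, its start 9957 bp from that of Psmb9. In Hypoxia the 3 genes were near background, at 1.57, 1.93 and 1.92 times for Psmb8, Psmb9 and Psmb10.

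**Figure D4:**
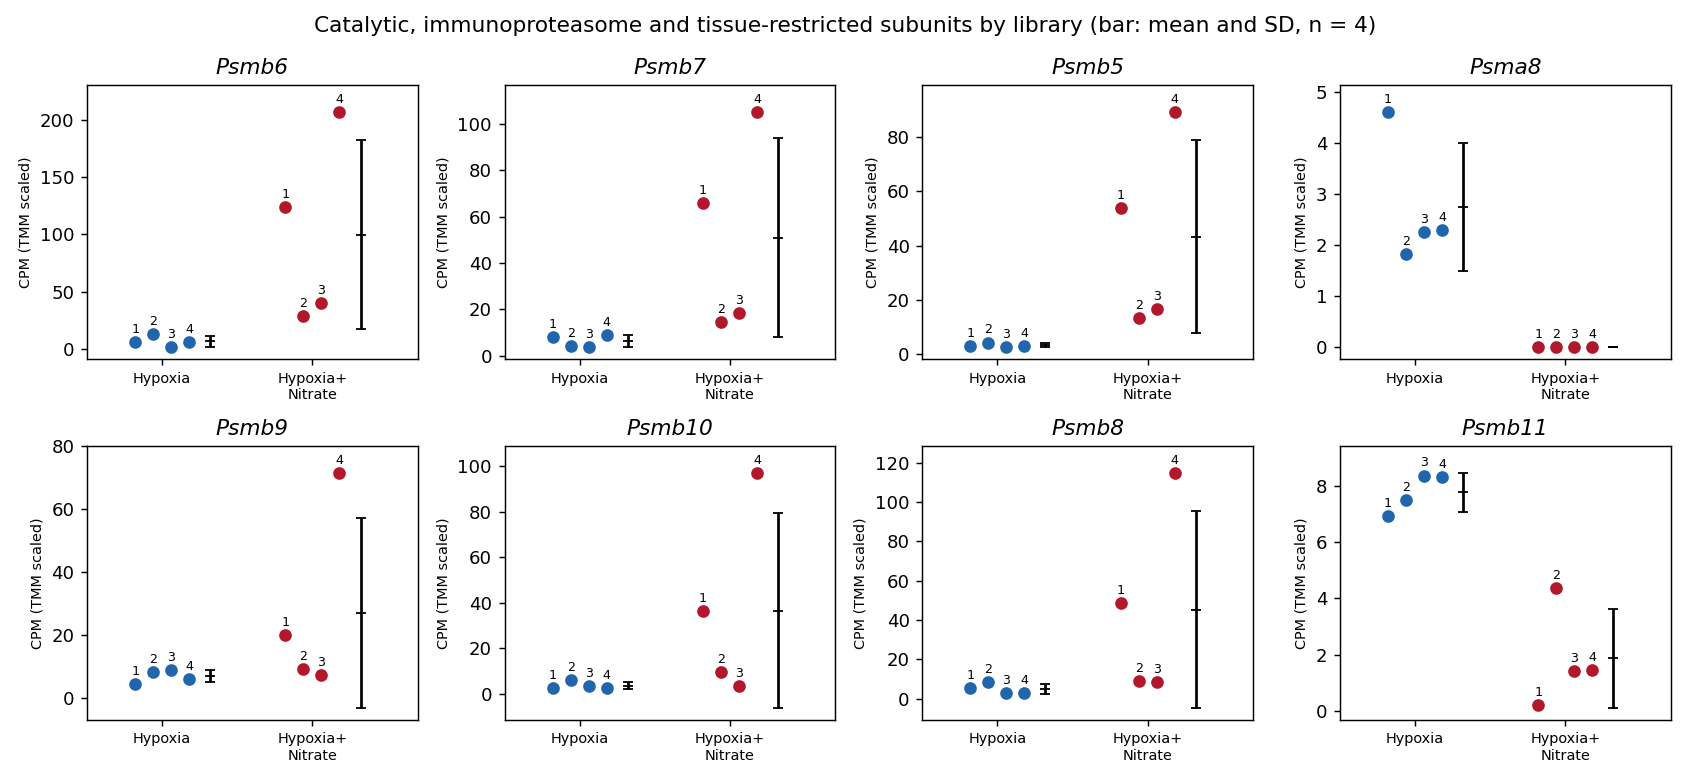
CPM (TMM scaled, one linear axis per gene) of the catalytic, immunoproteasome and tissue-restricted subunits in each library; numbers are replicates and bars are the mean and SD (n = 4). Hypoxia+Nitrate 1 and 4 are the highest libraries of the catalytic and immunoproteasome genes, and the 4 Hypoxia+Nitrate libraries of Psma8 are at 0.

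Each immunoproteasome subunit was set against the subunit it replaces as a log2 ratio of counts per kilobase within each library. The ratio of Psmb9 to Psmb6 was -1.34, -1.68, 1.45 and -0.92 in the Hypoxia libraries and -3.59, -2.63, -3.44 and -2.50 in Hypoxia+Nitrate 1 to 4. Every nitrate library lay under every Hypoxia library (means -0.62 ± 1.42 and -3.04 ± 0.555, SD, n = 4). The difference of -2.42 had an exact 2-sided permutation p of 0.0286, the smallest that 4 against 4 samples allow, and 0.0857 after adjustment over the 3 ratios. It did not pass, and with 4 samples a group a single separated ratio among 3 cannot reach an adjusted p under 0.05. Without Hypoxia 3, where Psmb6 had 31 counts, or 0.800 times the expected background, the difference was -1.73. The ratio of Psmb8 to Psmb5 was -0.97, -0.93, -1.78 and -1.80 in Hypoxia and -2.06, -2.44, -2.88 and -1.55 in Hypoxia+Nitrate. These groups overlapped through Hypoxia+Nitrate 4, and the difference of -0.87 did not pass (exact permutation p = 0.0857, adjusted 0.129). The ratio of Psmb10 to Psmb7 was spread on both sides of 0 in each group, and its difference of -0.19 did not pass (exact permutation p = 0.771). With the expected background subtracted, the Psmb8 to Psmb5 difference turned to 1.68, while that of Psmb9 to Psmb6 was -2.96 (exact permutation p = 0.229). Counts below the expected background were set to 0 there, as for Psmb8 and Psmb6 in Hypoxia 3, where these ratios became -7.96 and 6.72. The SDs in Hypoxia were 3.19 and 4.76, so both differences depend on counts at or near 0. Leaving out Hypoxia 2, Hypoxia 3 or Hypoxia+Nitrate 3 turned the small Psmb10 to Psmb7 difference to 0.22, 0.05 and 0.31. With 4 samples a group, these tests neither show a change of subunit makeup nor show that there was none.

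**Figure D5:**
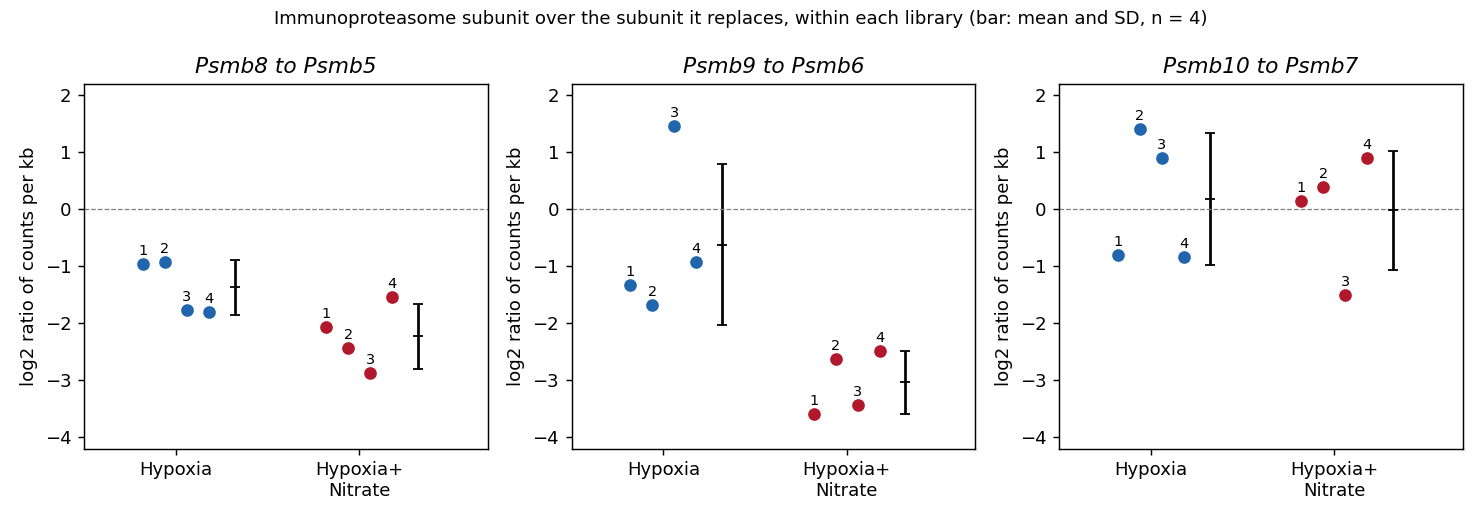
Log2 ratio of counts per kilobase of each immunoproteasome subunit to the constitutive subunit it replaces, by library, with the mean and SD of each group (n = 4). For Psmb9 to Psmb6 the Hypoxia libraries lie between -1.68 and 1.45 and the Hypoxia+Nitrate libraries between -3.59 and -2.50; the groups of the other pairs overlap.

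The 6 ATPases, which form the motor ring of the regulatory base, all rose, with log2 fold changes from 2.84 to 3.62 and a median of 3.32. Psmc1 (chr12:100110154-100123405, plus strand) held 9.61, 12.6, 6.64 and 5.78 CPM in Hypoxia 1 to 4 and 134, 46.6, 44.3 and 164 CPM in Hypoxia+Nitrate 1 to 4. The lowest nitrate library, 44.3 CPM, was well above the highest Hypoxia library at 12.6 CPM (log2 fold change 3.49 ± 0.610 (SE), adjusted p = 0.00917 in edgeR). Psmc6 (chr14:45329788-45349705, plus strand) held 4.67, 5.75, 3.21 and 3.73 CPM in Hypoxia 1 to 4 and 47.5, 7.05, 8.71 and 65.4 CPM in Hypoxia+Nitrate 1 to 4. Its libraries 2 and 3 of the nitrate group were only a little above Hypoxia 2 (log2 fold change 2.89 ± 0.726 (SE), adjusted p = 0.0182 in edgeR), and the call was lost without Hypoxia 1 (adjusted p = 0.0664), Hypoxia 3 (0.0651) or Hypoxia 4 (0.0587). Psmc2, Psmc3, Psmc4 and Psmc5 had log2 fold changes of 2.84, 3.16, 3.62 and 3.61. The Hypoxia counts of Psmc2 and Psmc6 were at 1.03 and 1.15 times the expected background, so their level there was hardly distinguishable from it.

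The 3 other base subunits rose as well. Psmd4 (chr3:95032694-95042614, minus strand), a ubiquitin receptor, held 6.74, 10.3, 3.58 and 5.72 CPM in Hypoxia 1 to 4 and 69.2, 24.2, 38.4 and 124 CPM in Hypoxia+Nitrate 1 to 4. All nitrate libraries were above all Hypoxia libraries (log2 fold change 3.28 ± 0.616 (SE), adjusted p = 0.00917 in edgeR). Psmd1, a scaffold of the base, held 10.7, 16.4, 14.0 and 12.4 CPM in Hypoxia 1 to 4 and 59.8, 27.1, 15.7 and 99.9 CPM in Hypoxia+Nitrate 1 to 4. Its groups overlapped, with Hypoxia+Nitrate 3 at 15.7 CPM under Hypoxia 2 at 16.4 CPM (log2 fold change 1.92 ± 0.577 (SE), adjusted p = 0.0347 in edgeR). The call of Psmd1 was lost in 6 of 8 fits without a single library: without Hypoxia 1 to 4 the adjusted p was 0.112, 0.0705, 0.0941 and 0.0883, and without Hypoxia+Nitrate 1 or 4 it was 0.0580 and 0.0850. Psmd2, the other scaffold, had a log2 fold change of 2.82 ± 0.602 (SE; adjusted p = 0.0106, edgeR), and its call was lost without Hypoxia 1 (adjusted p = 0.0519).

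All 8 lid subunits rose, with a median log2 fold change of 2.31. Psmd8 held 11.3, 7.42, 4.85 and 5.78 CPM in Hypoxia 1 to 4 and 127, 24.0, 21.6 and 158 CPM in Hypoxia+Nitrate 1 to 4. Its nitrate libraries 1 and 4 were far above 2 and 3, and all were above the Hypoxia group (log2 fold change 3.49 ± 0.747 (SE), adjusted p = 0.0106 in edgeR). Psmd3 held 6.28, 9.24, 6.11 and 11.5 CPM in Hypoxia 1 to 4 and 49.1, 11.3, 12.2 and 97.8 CPM in Hypoxia+Nitrate 1 to 4. Its groups overlapped, since Hypoxia+Nitrate 2 lay under Hypoxia 4 (log2 fold change 2.36 ± 0.703 (SE), adjusted p = 0.0335 in edgeR). Its call was lost without each of the Hypoxia libraries (adjusted p = 0.109, 0.0770, 0.105 and 0.0679 without 1 to 4) and without Hypoxia+Nitrate 1 (0.0541) or 4 (0.0863). Psmd7, the partner of the deubiquitinase Psmd14, held 10.6, 42.5, 28.1 and 24.6 CPM in Hypoxia 1 to 4 and 96.4, 109, 173 and 125 CPM in Hypoxia+Nitrate 1 to 4. It had the highest level per kilobase of all members in Hypoxia, 11.7 CPM per kb, at 11.0 times background, and its nitrate values did not follow the split between libraries 1 and 4 and libraries 2 and 3 (log2 fold change 2.25 ± 0.538 (SE), adjusted p = 0.0153 in edgeR). The call of Psmd7 was lost without Hypoxia 1 (adjusted p = 0.0598), Hypoxia 3 (0.0523) or Hypoxia 4 (0.0537). The remaining log2 fold changes were 2.18 for Psmd6, 1.63 for Psmd11, 1.97 for Psmd12, 3.49 for Psmd13 and 2.73 for Psmd14.

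The 3 chaperones that assemble the regulatory base ranged from 1.08 to 3.48 in log2 fold change. Psmd10 (chrX:140948429-140956728, minus strand), also known as gankyrin, held 0.868, 1.02, 1.21 and 1.99 CPM in Hypoxia 1 to 4 and 17.3, 2.73, 4.90 and 32.2 CPM in Hypoxia+Nitrate 1 to 4. Its Hypoxia mean was the lowest level per kilobase among the ubiquitous members, and all nitrate libraries were above that group (log2 fold change 3.48 ± 0.780 (SE), adjusted p = 0.0122 in edgeR). The call was lost without Hypoxia 1 (adjusted p = 0.0559). Over the Hypoxia group Psmd10 stood at 1.67 times a background that was halved for its place on the X chromosome. Without that halving, which assumes male animals, the ratio would be lower. Psmd5 held 11.7, 13.7, 13.3 and 9.70 CPM in Hypoxia 1 to 4 and 19.0, 17.5, 30.2 and 35.9 CPM in Hypoxia+Nitrate 1 to 4. Its groups did not overlap, but its log2 fold change of 1.08 ± 0.394 (SE; adjusted p = 0.0656, edgeR) missed the threshold. Psmd9 had a log2 fold change of 1.26 ± 0.391 (SE; adjusted p = 0.0391, edgeR). Its call was lost without each of Hypoxia 1 to 4 (adjusted p = 0.126, 0.0890, 0.0948 and 0.0874) and without Hypoxia+Nitrate 4 (0.0596). Its exons overlap those of Gm26745, which leaves 74.5% of its exonic length unique. In Psmd5 and Psmd9, as in Psma1, Psmd7 and Psmd11, Hypoxia+Nitrate 1 and 4 were not the 2 highest nitrate libraries; in 32 of the 39 genes they were.

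The tissue-restricted subunits went the other way. Psma8 (chr18:14706151-14762301, plus strand) had 69, 25, 43 and 38 counts in the Hypoxia libraries and 0 in each of the nitrate libraries. Against a floor of 3 counts per library it was at least 15.8-fold lower in Hypoxia+Nitrate (edgeR adjusted p = 0.00917). The counts without nitrate were 1.53, 0.836, 0.833 and 0.893 times those expected from background in libraries 1 to 4 and 1.03 times over the group, so its level was that of the background. In Hypoxia+Nitrate 1 to 4 the background estimate gave 7.38, 31.6, 29.4 and 11.8 expected counts, so the 0 counts there lay below it, and the estimate does not describe Psma8 in that group. Psmb11 (chr14:54621433-54629556, plus strand) had 104, 103, 159 and 138 counts in Hypoxia and 3, 77, 26 and 30 in Hypoxia+Nitrate, or 1.20, 1.79, 1.60 and 1.69 times background and 0.212, 1.27, 0.460 and 1.32 times. The groups did not overlap, and the log2 fold change of -2.05 ± 0.742 (SE; adjusted p = 0.0650, edgeR) missed the threshold. Psmb11 passed as lower under RLE and upper-quartile scaling, in DESeq2, in both forms of limma-voom, among nuclear protein-coding genes alone, without Hypoxia+Nitrate 2, and after background subtraction (-5.74). Many genes fell in these fits: 6012 and 5425 of 35431 (RLE, upper quartile), 17579 of 52557 (DESeq2), and 11948 and 15089 of 35431 (limma-voom, plain and weighted). Those that fell were 2939 of 20463 (nuclear protein-coding), 16480 of 41753 (without Hypoxia+Nitrate 2) and 1384 of 14999 (background subtracted).

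Per kilobase the 37 ubiquitous members spanned 0.866 (Psmd10) to 11.7 CPM per kb (Psmd7) in Hypoxia and 3.55 (Psmd5) to 66.4 CPM per kb (Psmb4) in Hypoxia+Nitrate, an 18.7-fold range. In nitrate the order began with Psmb4 (66.4 CPM per kb), Psma6 (63.2), Psmd7 (55.7), Psmb6 (53.3) and Psmc1 (50.2), with SDs of 53.4, 47.3, 14.8, 44.2 and 31.5 (n = 4). The steps between these neighbours were smaller than their SDs. The core subunits took 41.4% to 45.6% of the members' counts per kilobase in the Hypoxia libraries, and 52.1%, 44.0%, 46.5% and 51.9% in Hypoxia+Nitrate 1 to 4. The regulatory particle took 43.4% to 45.7% in Hypoxia and 42.1%, 49.7%, 48.1% and 39.5% in Hypoxia+Nitrate. The core was thus ahead of the regulatory particle in Hypoxia+Nitrate 1 and 4 and behind it in 2 and 3. The immunoproteasome subunits took 3.94% to 5.82% in Hypoxia and 3.97%, 3.14%, 1.46% and 6.59% in Hypoxia+Nitrate. Subtracting the expected background gave immunoproteasome shares of 1.72%, 4.98%, 4.48% and 1.85% for the Hypoxia libraries, in order of number, and of 4.12%, 2.85%, 1.18% and 6.83% for those with nitrate. By class, the median log2 fold change was 3.27 for the 14 core, 2.84 for the 17 regulatory and 3.18 for the 3 immunoproteasome subunits; the difference between classes was not tested. These medians were 2.61, 2.31 and 2.14 without Hypoxia+Nitrate 4, where no immunoproteasome subunit passed, and 1.78, 1.72 and 0.89 without both Hypoxia+Nitrate 1 and 4.

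Genes that work beside the proteasome were read from lists of their functions, in the same fit, where 11.7% of all genes tested rose. Of 5 activators and inhibitors of the core, 4 rose and 1 did not pass, with a median log2 fold change of 2.46. Psme2 and Psme1, which form the activator cap induced by interferon, had log2 fold changes of 4.84 ± 1.04 (SE; adjusted p = 0.0108, edgeR) and 3.92 ± 0.902 (SE; adjusted p = 0.0133, edgeR), and the nuclear activator Psme3 of 2.46 ± 0.598 (SE; adjusted p = 0.0161, edgeR). Psme2 held 1.87, 1.45, 1.53 and 1.57 CPM in Hypoxia 1 to 4 and 26.6, 6.94, 5.23 and 145 CPM in Hypoxia+Nitrate 1 to 4. Its 4 Hypoxia libraries were at 0.861 times background over the group, and Hypoxia+Nitrate 4 was by far the highest library. Of 5 core assembly chaperones only Pomp, the maturation factor of the beta ring, rose (3.04 ± 0.820, edgeR adjusted p = 0.0235), and the median was 0.91; Psmg3 and Psmg4 had 0.91 and 1.44 and did not pass. Of the 8 measured partners of the regulatory particle 6 rose (median 2.58), among them the ubiquitin receptor Adrm1 (3.03 ± 0.624, edgeR adjusted p = 0.00966) and the shuttle factors Ubqln1 (3.42 ± 0.755, edgeR adjusted p = 0.0116) and Rad23b (2.80 ± 0.628, edgeR adjusted p = 0.0122).

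Of 4 genes that control proteasome gene transcription 2 rose, with a median of 1.38. Nfe2l1, the factor that raises subunit genes when proteasomes are inhibited, held 13.6, 13.3, 8.64 and 11.3 CPM in Hypoxia 1 to 4 and 36.9, 15.3, 20.8 and 45.1 CPM in Hypoxia+Nitrate 1 to 4. Its 4 nitrate libraries were above the Hypoxia libraries, with a log2 fold change of 1.33 ± 0.445 (SE; adjusted p = 0.0499, edgeR), at the edge of the threshold. Nfe2l2, the oxidative stress factor, had 3.01 ± 0.786 (SE; adjusted p = 0.0209, edgeR), and Ngly1, which activates Nfe2l1 by removing its sugars, 1.43 ± 0.626 (SE; adjusted p = 0.111, edgeR). Of 6 genes for ubiquitin and its activating enzymes 5 rose (median 4.05), among them Rps27a, which encodes ubiquitin fused to a ribosomal protein, at 4.75 ± 0.885 (SE; adjusted p = 0.00917, edgeR). Of 7 genes of the p97 complex, which pulls ubiquitinated proteins from membranes and complexes, 4 rose (median 2.28): Ubxn1, Nploc4, Nsfl1c and Vcp had log2 fold changes of 3.08, 2.28, 2.84 and 2.90.

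The interferon genes that accompany the immunoproteasome were read the same way. Of 8 genes of class I peptide loading 4 rose (median 2.29), led by the light chain B2m (4.02 ± 0.861, edgeR adjusted p = 0.0107), Pdia3 (2.93 ± 0.680, edgeR adjusted p = 0.0137) and Calr (3.33 ± 0.788, edgeR adjusted p = 0.0149); the transporters Tap1 and Tap2 had 0.62 and 1.60 and did not pass. Of 10 interferon response regulators 5 rose (median 1.65), among them Jak1 (3.29 ± 0.696, edgeR adjusted p = 0.0102), Ifngr2 (2.40 ± 0.585, edgeR adjusted p = 0.0163) and Irf1 (3.16 ± 0.859, edgeR adjusted p = 0.0242), while Nlrc5, the activator of class I genes, had -1.35 without passing. Of 15 interferon-induced genes 2 rose, a share near the 11.7% of all genes tested, and these were the members Psmb8 and Psmb10. The other 13, which include Psmb9, Gbp2 (0.58), Irgm1 (0.82), Ifit3 (-1.46) and Isg15 (1.68), did not pass, and the list's median of 0.76 was above the -0.58 of all genes tested. That median includes the members Psmb10 (3.37), Psmb8 (3.18) and Psmb9 (1.96), which have the highest values of the list.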

How the data were processed

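Bulk RNA sequencing of small intestine was read from the files in 8 samples, 4 per group, with group and replicate number taken from the sample titles. The authors deposited raw counts of reads for every gene, once for all samples jointly and once for each; both versions held the same values in all 8. Per the labels' protocols, RNA was isolated with TRIzol (the text names islets at that step, although the tissue is small intestine) and libraries were made with a stranded kit. The submitters' processing notes name build GRCm38, DESeq (1.8.3), featureCounts (1.5.0-p3) and HISAT; how strand and multi-mapping reads were treated, and with which annotation, is not given in the sources used here. Reads of overlapping genes and near-identical copies are therefore uncertain: by blastn version 2.17.0 against GENCODE M21 transcripts, 11 of the 39 members have a copy of at least 95% identity over 200 bp. Of 55421 gene IDs, 55240 matched GENCODE M21.

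The counts were tested with edgeR (version 4.0.16, under R 4.3.3; filterByExpr with a minimum count of 10 and a total of 15, TMM scaling, quasi-likelihood test, Benjamini-Hochberg adjustment over all genes tested, threshold 0.05). The test itself gives no SE. Each SE of a log2 fold change was derived as its absolute value divided by the square root of the F statistic. CPM are TMM-scaled, and levels per kilobase use the union of annotated exons. Background was taken from 1467 autosomal receptor genes with at least 300 bp of unique exonic sequence, as counts per kilobase times a gene's unique exonic length, halved for genes on a sex chromosome (factor 0.5). That receptor genes are silent in gut was assumed. The halving likewise assumed male animals, and the labels give no sex. Where background was subtracted for the limma-voom fit, the ratios and the class shares, values below 0 were set to 0. Within-library ratios (0.5 added to each count) were compared by exact 2-sided permutation tests over samples (scipy version 1.17.1). Alternatives were RLE, upper-quartile and library-size scaling, testing unfiltered genes or those with CPM 1 or more in 4 samples, limma-voom (limma 3.58.1, plain or with quality weights), DESeq2 (1.42.0), a block for replicate number, nuclear protein-coding genes alone, subtraction of background before limma-voom, the background share as a covariate, 1 added to each count in the ratios, and leaving out libraries. Named members were all catalytic, immunoproteasome and tissue-restricted subunits, the lowest and highest p of every other role, and the 3 lowest p of each pathway list; Psmd2, Psmd7, Psmd9 and further list genes were named after their values were seen. The scripts were tested on simulated counts. The members and the lists were chosen with earlier results of these data known, so no list was tested. The deposited counts are the only depth given; PCR duplicates were not marked in them.

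Of the other marker lists, 6 of 7 goblet and Paneth cell genes and 1 of 5 fibroblast genes rose, 1 of 4 endothelial and 1 of 5 pancreatic acinar genes fell, and no red cell gene of 5 passed. Alas2 and 4 pancreatic genes were at 0 in at least 1 Hypoxia+Nitrate library. Some genes of the pathway and marker lists, including some that the rule for named genes covers, are not reported here by name.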

Additional observations from a re-analysis of the deposited data

Results flagged for a closer look

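In 48 groups of 4 libraries examined (the named members, the 3 ratios and the members' summed share, each by group), 1 library lay apart from the others by Dixon's criterion, where chance gives about 1 in 20. Psma8 stood at 4.61 CPM in Hypoxia 1 against 1.82, 2.27 and 2.29 CPM in Hypoxia 2 to 4. Its 69 counts there were 1.53 times the background expected in that library.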

How the results depend on the processing

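Of the 35431 genes tested, 8653 passed. The number was 1800 with library size alone, 16708 with no filter, 22228 with DESeq2, 15818 and 20696 with limma-voom without and with quality weights, 4791 with the replicate block, 2015 after background subtraction, 0 of 35431 with the background share as covariate in edgeR (2641 at an unadjusted p under 0.05) and 4227 without Hypoxia 1 and 2; without single libraries it ran from 1932 to 22454. Members that rose numbered 35, against 0 with library size alone, 3 after background subtraction, 0 with the covariate and 6 without Hypoxia 1 and 2 (1.51% of genes); without single libraries they ran from 8 to 37. Members that fell numbered 1 (Psma8), also after background subtraction, where the 1 was Psmb11, against 2 with RLE, upper quartile, DESeq2, both limma-voom fits and nuclear protein-coding genes alone, 0 with the covariate, and 1 to 2 without single libraries. With the covariate the log2 fold change turned to -0.73 in Psma5, -1.55 in Psmb10, -0.41 in Psmb3, -0.83 in Psmb8, -1.63 in Psmb9, -0.16 in Psmc2, -0.74 in Psmc6, -0.63 in Psmd1, -0.81 in Psmd10, -0.24 in Psmd14 and -1.56 in Psmd3. The background share did not overlap between the groups (39.0% to 63.7% in Hypoxia, 2.74% to 23.2% in Hypoxia+Nitrate). That fit can therefore hardly tell group and background share apart, and the cause of each reversal was not tested. Background subtraction gave no value for Psma8, which its filter removed. The Psmb8 to Psmb5 difference was 1.68 after background subtraction, where counts below the background were set to 0. That of Psmb10 to Psmb7 ran from -0.53 to 0.31 without single libraries. With 3 samples against 4 the adjusted p cannot pass 0.05. Genes of the pathway and marker lists were read from the reported fit alone.

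The sample titles do not say whether the replicate numbers pair the samples. Same-numbered libraries correlated at 0.05, -0.18, 0.18 and -0.05 in their deviations from the group means. Libraries of different number correlated at -0.16 to 0.17. So few correlations between libraries of such unequal quality cannot show or exclude a pairing. With the replicate number as a block, 10 of the called members no longer passed and 29 members kept their call or lack of one. No paired analysis was made of the ratios, since no pairing is stated.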
